A study of Mus musculus with 12 samples.

Results

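The replication-dependent histone genes were followed in wounded mouse skin. They were taken as every gene in the deposited table whose symbol starts with Hist1h, Hist2h, Hist3h or Hist4h, with a summed estimated count of at least 15 over the 12 libraries. This held for 67 of 29956 genes: 6 for the linker histone H1, 19 for H2A, 17 for H2B, 12 for H3 and 13 for H4. By the name of the gene cluster, 53 lie in Hist1, 10 in Hist2, 3 in Hist3 and 1 in Hist4. They were chosen by name and by the summed count, and neither uses the difference between groups. The choice of this gene family was nevertheless made with earlier results of these data known. Just inside the count rule was Hist1h4m, with a summed estimated count of 29.98, and just outside was Hist1h2aj, with 14.6. A filter on low counts kept 63 of the 67 for testing. Hist1h2aa, Hist1h2ba, Hist1h4m and Hist3h2bb-ps did not pass it.

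All 12 mice were of the diabetic genotype B6.BKS(D)-Leprdb/db, which lacks a working leptin receptor and becomes obese, and all had full-thickness punch wounds on the back. Wounds of 4 mice received a vehicle of PBS with glycerol, those of 4 received Alcaligenes faecalis in PBS and those of 4 received Staphylococcus aureus in PBS, and skin was frozen on day 3. Glycerol is named for the vehicle and not for the bacterial suspensions, and there is no unwounded or non-diabetic group among these samples. Libraries were made from total RNA after removal of ribosomal RNA, so mRNA without a poly(A) tail is kept. The comparisons ask how the wound's histone mRNA differs with each bacterium.

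Histones are the proteins around which DNA is wound. Pairs of H2A, H2B, H3 and H4 form the core of the nucleosome, and H1 binds the linker DNA where it enters and leaves. Cells need new histones when they copy their DNA, and the genes followed here are switched on mostly in S phase. Their mRNAs are unusual: in place of a poly(A) tail they end just after a short stem-loop, which is bound by the stem-loop binding protein Slbp and is cut with the help of the U7 small nuclear ribonucleoprotein. Npat, a substrate of cyclin E and Cdk2, drives their transcription. Some of these genes can also give mRNAs that run past the stem-loop and carry a poly(A) tail, as described for Hist1h1c, Hist1h2bc and Hist2h2be in cells that have stopped dividing.

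The stem-loop is the feature that ties these genes together. It has a stem of 6 base pairs and a loop of 4 bases, and was found in the GENCODE M21 transcript models of 44 of the 67 genes. The other 23 had none in their model, among them Hist1h2bc and Hist2h2be. Some of these models are short, such as Hist1h2bl with 381 bases and Hist1h4k with 312, and may end before a stem-loop. The search also required all 6 base pairs of the stem. A model without a match therefore does not show that the gene lacks a stem-loop. One gene stands here for each of the 5 forms found in 2 or more genes, and Hist2h2ac for a rarer one, with the 16 bases of the stem-loop in capitals.
Hist1h1c: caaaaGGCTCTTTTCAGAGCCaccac
Hist1h4d: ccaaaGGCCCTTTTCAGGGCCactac
Hist1h3e: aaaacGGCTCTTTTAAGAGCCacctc
Hist1h4i: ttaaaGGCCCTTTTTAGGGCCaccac
Hist1h4b: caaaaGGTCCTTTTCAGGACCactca
Hist2h2ac: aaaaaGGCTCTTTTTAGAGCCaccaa
The form of Hist1h1c stood in 24 genes, of the H1, H2A, H2B and H3 classes. The form of Hist1h4d stood in 7 genes, all of the H4 class, and that of Hist1h3e in 6. Hist1h4i shared its form with Hist2h4, and Hist1h4b shared its form with Hist1h4j. Hist2h2ac was the sole gene with its form. In 17 genes the model ran more than 200 bases past the stem-loop, as in Hist1h1c, where 840 bases of a model of 1560 bases follow it.

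The promoters differ by class. RefSeq promoters of 300 bases (250 before and 50 after the start, build GRCm38.p6) were found for 60 of the 67 genes. The letters of 5 known promoter elements, searched on both strands, are in capitals in the 150 bases before the start of 4 genes whose levels are described further on.
Hist1h1c, chr13:23738657-23738806 (+ strand): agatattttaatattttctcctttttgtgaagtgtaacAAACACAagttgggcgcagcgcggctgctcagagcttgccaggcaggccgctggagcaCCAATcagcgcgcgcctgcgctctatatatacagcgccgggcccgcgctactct
Hist1h1e, chr13:23622559-23622708 (- strand): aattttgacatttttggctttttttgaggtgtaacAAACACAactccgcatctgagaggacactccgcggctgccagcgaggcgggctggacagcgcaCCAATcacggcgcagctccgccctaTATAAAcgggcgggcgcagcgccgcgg
Hist1h2bg, chr13:23571250-23571399 (+ strand): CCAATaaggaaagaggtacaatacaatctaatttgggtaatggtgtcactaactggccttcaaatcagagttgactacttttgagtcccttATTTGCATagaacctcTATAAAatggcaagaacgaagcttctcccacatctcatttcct
Hist1h4i, chr13:22041363-22041512 (- strand): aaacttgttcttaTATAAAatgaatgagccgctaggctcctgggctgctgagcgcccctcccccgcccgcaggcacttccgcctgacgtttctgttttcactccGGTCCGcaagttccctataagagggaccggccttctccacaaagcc
CCAAT, the letters bound by NF-Y, stood in the promoters of 85% of the 60 genes and in 37.4% of all 32851 promoters of the same length. All 6 H1, 18 H2A, 14 H2B and 10 H3 promoters held it, against 3 of 12 H4 promoters. TATAAA stood in 58.3% of the histone promoters and in 13.6% of all promoters. AAACACA, the H1 box, stood in 5 of 6 H1 promoters and in 7.18% of all promoters. ATTTGCAT, the octamer bound by Pou2f1, stood in 7 of 18 H2A and 5 of 14 H2B promoters, in none of the other classes, and in 1.74% of all promoters. GGTCCG, the core of the element bound by Hinfp, stood in 11 of 12 H4 promoters and in 8.25% of all promoters. Of 3 further strings, TTTCCCGC (E2F) stood in 1.67% of histone promoters and 1.07% of all, TGACGTCA (CRE) in 6.67% and 1.79%, and TGACTCA (AP-1) in 0 of 60 and in 5.202% of all. Matches of different strings may overlap. A match is a description of letters and not of binding.

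The libraries held 38.4 to 71.3 M (mega) estimated counts, of which the 67 genes took 0.186% to 0.380%. Levels are CPM, counts per M of library size scaled by TMM, a trimmed mean of ratios between libraries. They are not divided by gene length, so levels are not compared between genes. Markers of skin were present in every library, for example Krt14 at 272 to 1439 CPM and Col1a1 at 5211 to 11067 CPM. Vehicle replicate 3 stood apart in its tissue makeup: 12 adipocyte markers summed to 10303 CPM there and to 1684 to 4415 CPM in the other libraries. Estimated counts per pair of replicates of the same group differed by far more than sampling noise, so within a group no library looked deposited under 2 names. Pairs from different groups were not compared in this way.

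With S. aureus, histone mRNA was higher than with vehicle in every class. The summed level of the 67 genes was 2501, 2285, 2317 and 2185 CPM in vehicle replicates 1 to 4. It was 2477, 2099, 2027 and 1862 CPM with A. faecalis, and 3269, 3164, 3800 and 4013 CPM with S. aureus. The S. aureus libraries all lay above the other 8, while the vehicle and A. faecalis libraries overlapped. The means were 2322 ± 132 CPM (SD, n = 4) with vehicle, 2117 ± 260 CPM with A. faecalis and 3562 ± 410 CPM with S. aureus, which is 1.53 times the vehicle mean. In bulk tissue, more cells that make these mRNAs and more mRNA per cell cannot be told apart.

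**Figure D1:**
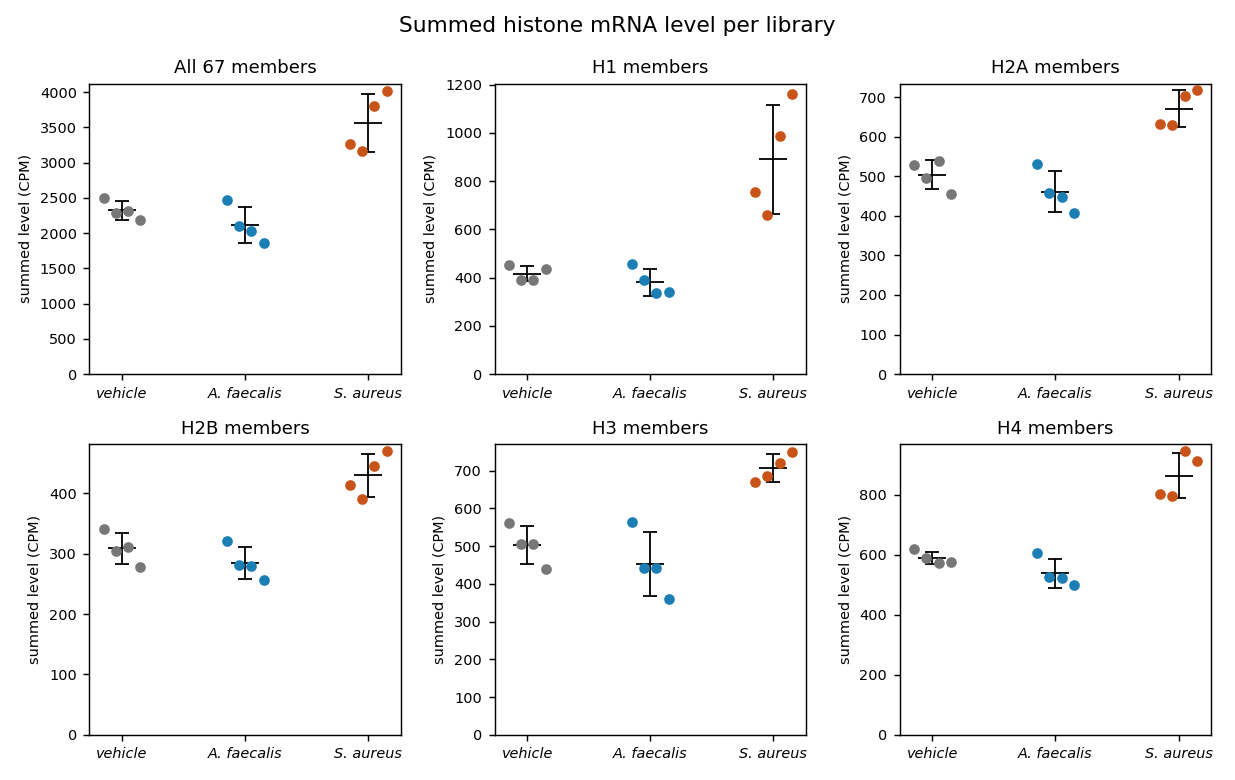
Summed level (CPM) of the 67 histone genes and of each class per library, by group. Points are libraries, horizontal bars are means and error bars SD of 4 libraries. In each panel the 4 S. aureus libraries lie above the vehicle and A. faecalis libraries, and the H1 panel shows the largest ratio, 2.14 times the vehicle mean.

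Within that sum the ratio to vehicle was highest for the linker histones. H1 genes summed to 417 ± 31.7 CPM with vehicle (390 to 451 CPM), 380 ± 55.2 CPM with A. faecalis and 890 ± 227 CPM with S. aureus (660 to 1162 CPM), 2.14 times vehicle. The 4 core classes together came to 1906 ± 124, 1736 ± 209 and 2672 ± 187 CPM, 1.40 times vehicle with S. aureus. By class the ratio to vehicle was 1.33 for H2A, 1.39 for H2B, 1.41 for H3 and 1.47 for H4. The level of H1 per level of core histones was 0.202 to 0.249 in vehicle libraries, 0.199 to 0.228 in A. faecalis libraries and 0.264 to 0.407 in S. aureus libraries, without overlap. These sums and ratios were not tested.

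Tested gene by gene against vehicle, 35 of the 63 genes rose with S. aureus and none fell (edgeR's quasi-likelihood test, Benjamini-Hochberg adjusted p under 0.05 over 18218 genes). Over all genes tested, 3.87% were called higher and 2.97% lower, 6.84% in all. The log2 fold change was above 0 in 60 of 63, beside 45.3% of all genes, and 49 had an unadjusted p under 0.05, beside 27% of all genes. The H4 class was called in full, 12 of 12, followed by 7 of 12 H3, 7 of 15 H2B, 3 of 6 H1 and 6 of 18 H2A genes. The median log2 fold change was 0.53 over the 63 genes, beside -0.04 over all genes tested. By class it was 0.67 for H1, 0.47 for H2A, 0.57 for H2B, 0.54 for H3 and 0.52 for H4. In 47 of the 63 genes every S. aureus library lay above every vehicle library, which was so for 7.56% of all genes. In none was the order the reverse, which was so for 7.57% of all genes.

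How many genes passed depended on single libraries, while the size of the difference did so less. The count was 7 without S. aureus replicate 3, 10 without S. aureus replicate 4, 19 without S. aureus replicate 2 and 23 without vehicle replicate 3, and the calls over all genes fell from 1246 to 260, 381, 451 and 973 in these fits. The median log2 fold change of the histone genes stayed between 0.47 and 0.62 whichever library was left out. Hist1h1c, Hist1h1e, Hist1h2bg, Hist1h4c, Hist1h4d, Hist1h4h and Hist1h4n were called in all 12 such fits. In simulated data of this size, 31.3% of genes changed by 1.5-fold were recovered and 74.6% of those changed by 2-fold.

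**Figure D2:**
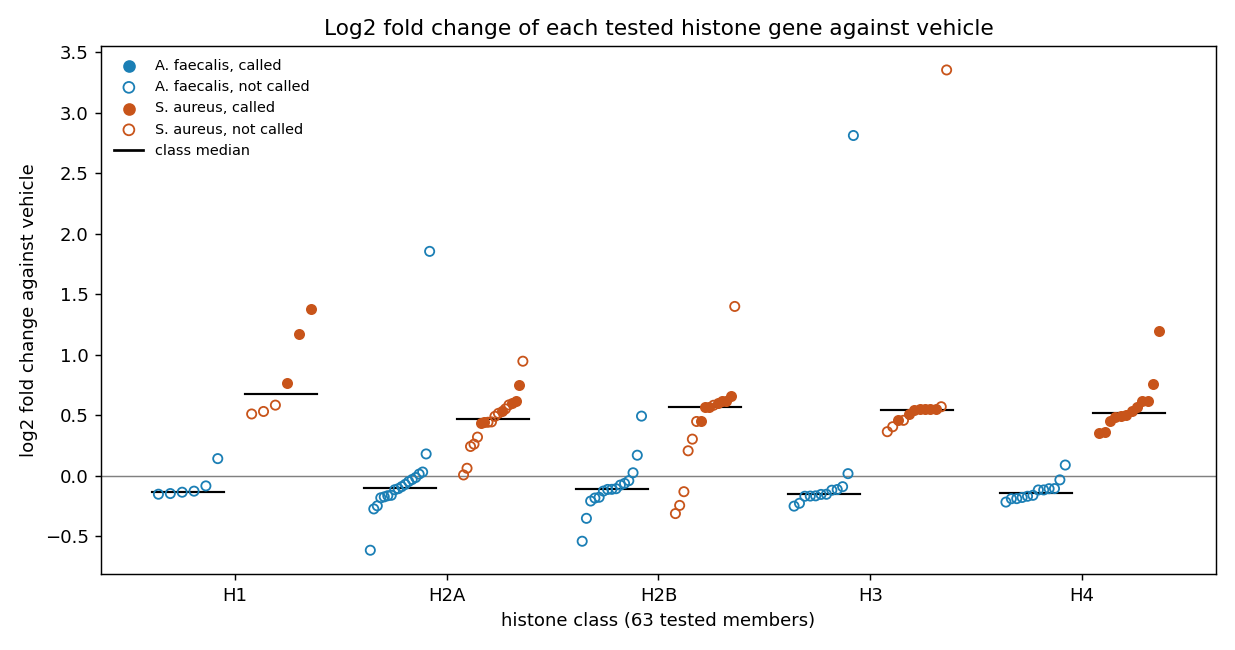
Log2 fold change against vehicle of the 63 tested histone genes, by class, with A. faecalis (blue) and S. aureus (orange). Filled points passed the test and open points did not, and black bars are class medians, which lie between -0.15 and -0.10 with A. faecalis and between 0.47 and 0.67 with S. aureus.

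Among the H1 genes the largest difference was in Hist1h1c, which encodes H1.2. Its level was 168, 154, 170 and 193 CPM in vehicle replicates 1 to 4, 174, 162, 136 and 144 CPM with A. faecalis, and 350, 285, 489 and 651 CPM with S. aureus. The lowest S. aureus library lay above the highest of the others, and S. aureus replicates 3 and 4 lay highest. The log2 fold change against vehicle was 1.37 (SE 0.21, edgeR adjusted p = 0.00875), and 1.13 to 1.54 when a library was left out. Hist1h1c made up 37.2% to 44.3% of the H1 sum in vehicle libraries, 38.3% to 42.4% in A. faecalis libraries and 43.1% to 56.0% in S. aureus libraries. Vehicle replicate 4 had the highest vehicle value of this share, of the H1 to core ratio (0.249) and of Hist1h1c itself.

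Hist1h1e, which encodes H1.4, stood at 101, 90.8, 80.2 and 100 CPM with vehicle, 102, 90.7, 77.6 and 80.8 CPM with A. faecalis and 177, 166, 235 and 258 CPM with S. aureus. Again no S. aureus library overlapped the others (log2 fold change 1.17, SE 0.15, edgeR adjusted p = 0.00648). Hist1h1d, for H1.3, rose from 69.7 ± 7.49 to 118 ± 15.1 CPM (0.76, SE 0.14, edgeR adjusted p = 0.0131). Hist1h1a and Hist1h1b, for H1.1 and H1.5, were higher in every S. aureus library but missed the threshold, with log2 fold changes of 0.51 and 0.53 and edgeR adjusted p of 0.0505 and 0.054. Hist1h1t, the testis form, was at 0.534 CPM or less on average in each group and overlapped between them.

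All 12 tested H4 genes rose, in the Hist1, Hist2 and Hist4 clusters alike. Of these, Hist1h4c, Hist1h4d, Hist1h4h and Hist1h4n were called in all 12 fits that leave out a library. Hist1h4b lost the call in 7 of the 12. Hist1h4i differed most, at 7.13, 9.31, 6.88 and 12.1 CPM with vehicle, 9.48, 10.98, 8.38 and 8.80 CPM with A. faecalis and 14.5, 15.5, 23.4 and 27.7 CPM with S. aureus (log2 fold change 1.198, SE 0.23, edgeR adjusted p = 0.0164). As in Hist1h1c, replicates 3 and 4 lay highest, and without S. aureus replicate 3 its adjusted p was 0.0585. Hist1h4n went from 87.2 ± 2.90 to 148 ± 19.0 CPM (0.76, SE 0.11, edgeR adjusted p = 0.00791). The smallest differences of the class were in Hist1h4b (0.45), in Hist2h4 (0.36) and in Hist4h4 (0.36), the sole gene of its cluster, which stood at 95.2 to 101 CPM with vehicle and 120 to 130 CPM with S. aureus. Hist1h4d, with 945 of its 1108 sequence words of 31 bases (31-mers) found in no other gene, rose from 95.6 ± 5.49 to 147 ± 20.1 CPM (0.62, SE 0.10). Of the 400 31-mers of Hist1h4n, 50 are found in no other gene, so its value depends more on how shared reads were divided.

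**Figure D3:**
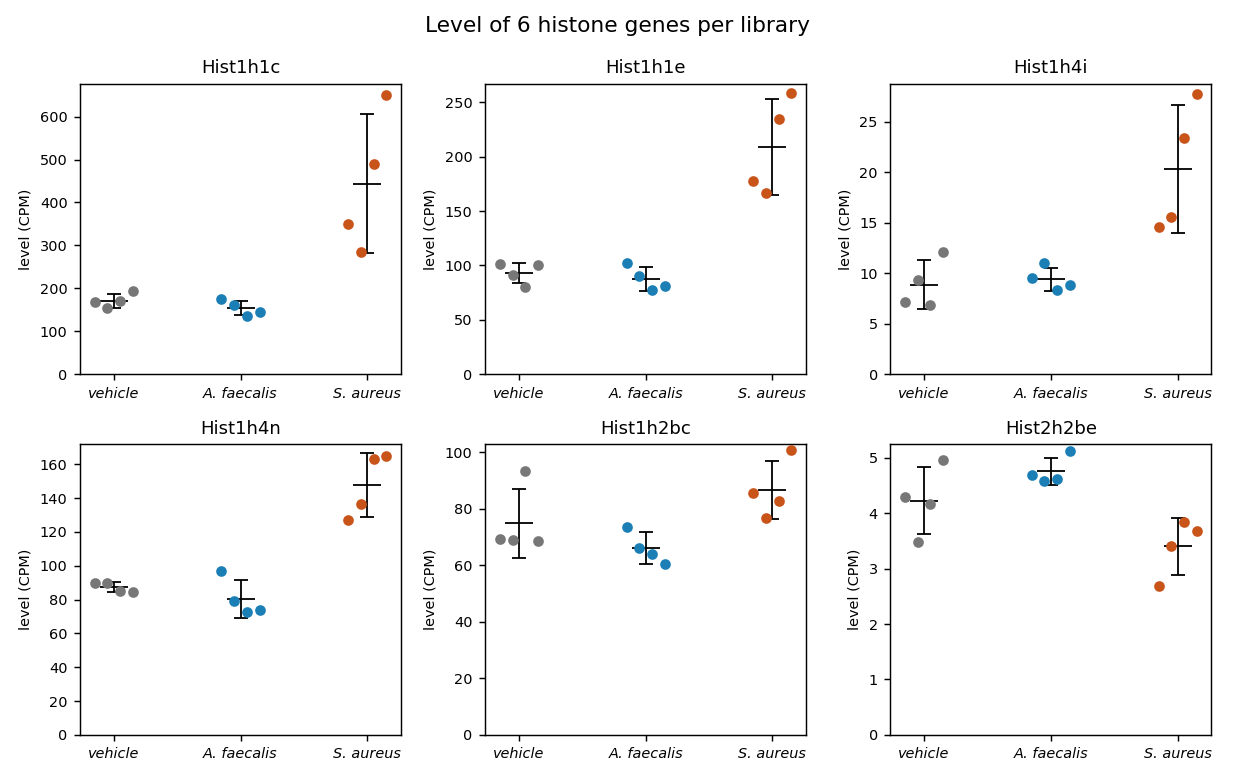
Level (CPM) of 6 histone genes per library, by group. Points are libraries, horizontal bars means and error bars SD of 4 libraries. Hist1h1c, Hist1h1e, Hist1h4i and Hist1h4n lie higher in each S. aureus library than in any other, whereas Hist1h2bc overlaps with vehicle and Hist2h2be is lower with S. aureus than with A. faecalis.

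Of the 12 H3 genes 7 rose. Hist1h3a rose from 29.0 ± 2.28 to 41.4 ± 1.39 CPM (0.51, SE 0.11, edgeR adjusted p = 0.0217), and Hist1h3d from 18.5 ± 2.22 to 27.1 ± 0.746 CPM (0.55, SE 0.12). Hist2h3c2 rose from 75.02 ± 6.33 to 103 ± 9.15 CPM (0.46, edgeR adjusted p = 0.0456). It lost this call in 10 of the 12 fits that leave out a library. Of its 990 31-mers, 636 are found in the gene Gm20634 too. Hist1h3e, Hist1h3f, Hist1h3g and Hist1h3i, the other 4 called, had log2 fold changes of 0.54 to 0.55. Only 15.6% of the 31-mers of Hist1h3e and 6.82% of those of Hist1h3i are found in no other gene. Hist1h3b had a log2 fold change of 0.46 too but an adjusted p of 0.0645, its vehicle libraries spreading from 51.6 to 84.3 CPM. Hist2h3c1 had the largest fitted value of all (3.35, SE 1.58, edgeR adjusted p = 0.195), from 0 to 1.49 CPM with vehicle and 0.0261 to 11.6 CPM with S. aureus. All 1795 of its 31-mers occur in the gene Gm20634 too.

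Among H2A genes Hist1h2ai rose from 17.9 ± 2.00 to 30.2 ± 6.12 CPM (0.75, SE 0.17, edgeR adjusted p = 0.0247). Hist1h2ap rose from 66.0 ± 10.9 to 100 ± 5.02 CPM (0.60, SE 0.13), Hist1h2ab by 0.44 and Hist2h2ac by 0.44. Only 7.99% of the 31-mers of Hist1h2ai and 6.64% of those of Hist1h2ap are found in no other gene. With 1 library left out, Hist1h2ap lost its call in 3 of 12 fits, Hist1h2ab in 5 and Hist2h2ac in 7. Hist1h2ae and Hist1h2af had log2 fold changes of 0.45 and 0.32 and were not called (edgeR adjusted p = 0.052 and 0.13). Hist3h2a, of the small Hist3 cluster, stood at 17.8 ± 2.90 and 21.04 ± 2.48 CPM and was not called (0.24, SE 0.12). Among H2B genes Hist1h2bg had the smallest unadjusted p, at 57.4, 51.0, 46.5 and 39.3 CPM with vehicle and 69.7, 72.5, 75.4 and 79.8 CPM with S. aureus (0.62, SE 0.11, edgeR adjusted p = 0.0126). The other 6 called H2B genes had log2 fold changes of 0.45 (Hist2h2bb) to 0.66 (Hist1h2be). Hist2h2bb lost its call in 10 of the 12 fits that leave out a library. Hist1h2al, annotated as a pseudogene, was at 0.606 CPM on average in both groups (0.00739, SE 0.37).

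Of the genes named above as also made as polyadenylated mRNA, the 2 of the H2B class were not called against vehicle. Hist1h1c, named with them, was called higher (1.37, edgeR adjusted p = 0.00875). Hist1h2bc was at 69.3, 68.8, 93.3 and 68.5 CPM with vehicle and 85.7, 76.7, 82.9 and 101 CPM with S. aureus, which overlap through vehicle replicate 3 (0.21, SE 0.12, edgeR adjusted p = 0.289). The other 3 vehicle libraries lay below every S. aureus library, and without vehicle replicate 3 the log2 fold change of Hist1h2bc was 0.35 (edgeR adjusted p = 0.073, not called). Hist2h2be was at 4.30, 3.49, 4.16 and 4.95 CPM with vehicle, 4.70, 4.59, 4.63 and 5.12 CPM with A. faecalis and 2.69, 3.40, 3.84 and 3.68 CPM with S. aureus. Its log2 fold change against vehicle was -0.31 (SE 0.15, edgeR adjusted p = 0.191). Of its 31-mers 97.2% are found in no other gene. Hist3h2ba was at 0.592 and 0.543 CPM on average and did not pass.

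With A. faecalis, no histone gene passed the test against vehicle. None of 63 was called by edgeR, DESeq2 or limma-voom, beside 0.011% of all genes by edgeR (0.00549% higher and 0.00549% lower), and 4 of 63 had an unadjusted p under 0.05, beside 7.68% of all genes. The median log2 fold change was -0.12, beside -0.03 over all genes, and 11 of 63 lay above 0, beside 43.8% of all genes. It stayed between -0.21 and -0.04 whichever library was left out. Every A. faecalis library lay below every vehicle library in Hist2h2aa2 and Hist2h2ab, and 2.56% of all genes were separated in that way. The reverse order was seen in none of the 63 and in 1.49% of all genes. Hist2h2ab was at 1.97 ± 0.103 CPM with vehicle and 1.66 ± 0.127 CPM with A. faecalis (-0.25, SE 0.15, edgeR adjusted p = 0.698). In A. faecalis replicate 1, 51 of the 63 genes had the highest value of their group, and in replicate 4, 48 had the lowest. The median SD of log2 CPM within a group was 0.191 over the histone genes with vehicle, 0.230 with A. faecalis and 0.128 with S. aureus, beside 0.266, 0.195 and 0.183 over all genes tested.

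Set directly against A. faecalis, S. aureus gave more calls: 51 histone genes were higher and 1 was lower, beside 7.62% and 5.06% of all genes, 12.7% in all. The groups did not overlap in 52 genes higher with S. aureus and 1 lower, beside 11.8% and 11.5% of all genes. The unadjusted p was under 0.05 in 54 of 63, beside 28.2% of all genes. All 12 H4, 11 of 12 H3, 10 of 15 H2B, 13 of 18 H2A and 5 of 6 H1 genes were called higher. The median log2 fold change was 0.65, beside -0.02 over all genes. Leaving out a library gave 38 to 53 calls, and 36 genes were called in all 12 such fits. This comparison shares its S. aureus libraries with the first and its A. faecalis libraries with the second. Hist1h1c had a log2 fold change of 1.53 (SE 0.22, edgeR adjusted p = 0.00182), Hist1h1e of 1.25 and Hist1h4i of 1.11. Hist1h4h, at 60.2 ± 3.87 and 95.4 ± 7.15 CPM, had the smallest adjusted p of the histone genes (0.66, SE 0.08, edgeR adjusted p = 0.000803). Hist1h2bp was called here (0.65) and not against vehicle (0.30), and the difference between those 2 values is that between A. faecalis and vehicle (-0.35, edgeR adjusted p = 0.669). The gene called lower was Hist2h2be (-0.48, SE 0.15, edgeR adjusted p = 0.0489), and it lost the call with DESeq2 size factors, with no filter on low counts, with the replicate block and in 10 of the 12 fits that leave out a library.

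The division of reads between near-identical genes moved single values but less so their sums. All 498 31-mers of Hist2h2aa2 occur in Hist2h2aa1 too, and 498 in the gene Gm20634. The pair's sum may therefore leave out shared reads given to Gm20634. Hist2h2aa1 was given 0% to 13.7% of the pair's level in vehicle libraries, 0.201% to 55.3% in A. faecalis libraries and 0.161% to 17.2% in S. aureus libraries. The pair's sum was 224 ± 24.6, 199 ± 17.8 and 273 ± 19.2 CPM in the 3 groups, so the separation of Hist2h2aa2 between A. faecalis and vehicle was not seen in the sum, whose ranges overlap (186 to 225 and 204 to 260 CPM). Hist1h2bq took 18.6% to 94.2% of its sum with Hist1h2br, which share 98.3% of the 31-mers of the smaller. That sum was 20.1 ± 3.31 CPM with vehicle, 18.6 ± 1.23 CPM with A. faecalis and 28.8 ± 3.19 CPM with S. aureus. With 4 such pairs summed, 36 of 60 were called with S. aureus against vehicle, beside 6.87% of all genes. Over the 24 genes with at least 50% of 31-mers of their own the median log2 fold change with S. aureus was 0.52, and over the other 39 it was 0.54. Sharing also crosses classes: 24.5% of the 31-mers of Hist1h1e occur in the H2B gene Hist1h2be, and 65.3% are its own. The H1 and core sums may therefore share reads there.

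**Figure D4:**
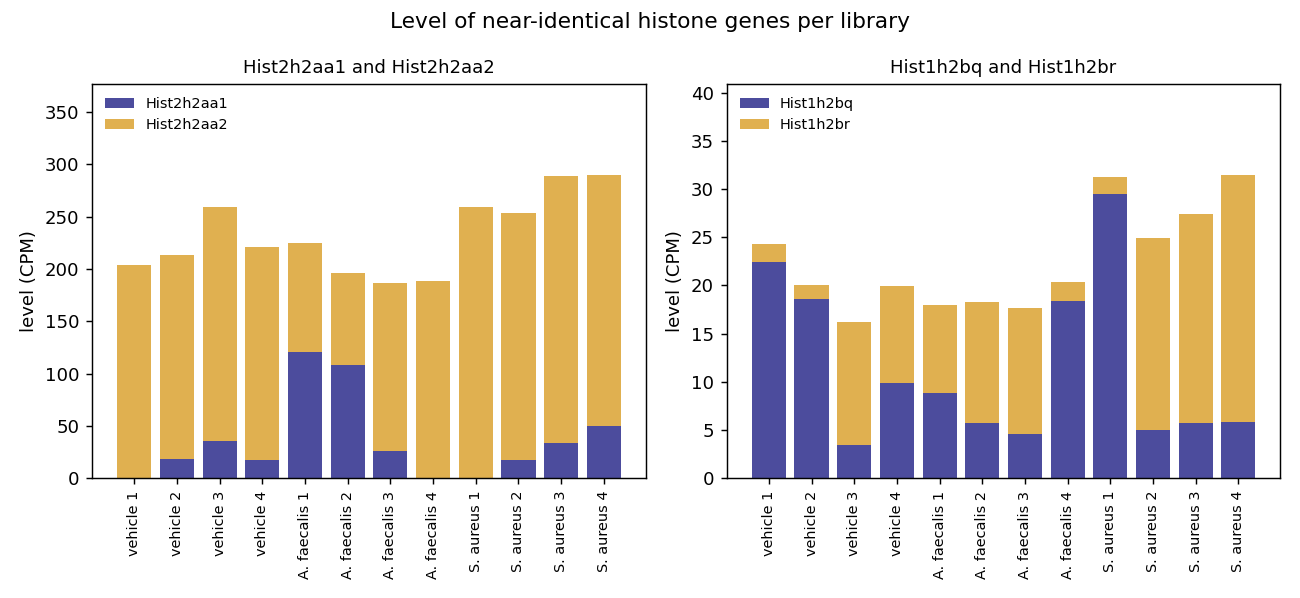
Level (CPM) of the near-identical genes Hist2h2aa1 and Hist2h2aa2 (left) and Hist1h2bq and Hist1h2br (right) in each library, stacked so that bar height is the pair's sum. The division within a pair swings between libraries of one group, while the sums vary less.

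Genes whose models run over 200 bases past the stem-loop were set apart after their values were seen. Of these 17 genes, 15 were called higher with S. aureus against vehicle, with a median log2 fold change of 0.62. Of the other 46 genes 20 were called, with a median of 0.51, beside 3.87% of all genes called higher. The 17 include Hist1h1c, Hist1h1d and Hist1h1e, the 3 called H1 genes, and several genes of the H4 class, which was called in full. The split thus divides the classes too. The difference between these sets was not tested.

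Slbp, the stem-loop binding protein, was at 34.9 ± 5.37 CPM with vehicle, 39.1 ± 3.29 CPM with A. faecalis and 40.6 ± 4.07 CPM with S. aureus and was not called in any comparison (S. aureus against vehicle 0.22, SE 0.12, edgeR adjusted p = 0.262). Npat was at 37.5 ± 2.55, 38.7 ± 1.14 and 40.1 ± 3.95 CPM and was not called either. Of 20 such factors, 2 rose with S. aureus against vehicle, beside 3.87% of all genes: Cstf2, of the cleavage complex (0.35, SE 0.07, edgeR adjusted p = 0.0225), and Nfya, a subunit of NF-Y (0.37, SE 0.09, edgeR adjusted p = 0.0313). Of the 12 fits that leave out a library, Cstf2 lost this call in 3 and Nfya in 4. Against A. faecalis 3 rose, beside 7.62% of all genes: Cstf2, Zcchc6 and Nfyb, of which Zcchc6 lost its call in 6 such fits and Nfyb in 7. None of 23 histone chaperones was called against vehicle, and 2 were against A. faecalis. Daxx (0.49) lost that call in 6 of the 12 fits and Hat1 (0.24) in 10, with an edgeR adjusted p of up to 0.146. With A. faecalis against vehicle no gene of these lists was called, beside 0.011% of all genes.

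Of 11 genes of other histone variants, 2 rose with S. aureus against vehicle, beside 3.87% of all genes. H3f3b, for the variant H3.3, went from 366 ± 99.7 to 798 ± 229 CPM (1.13, SE 0.25, edgeR adjusted p = 0.0247). H2afx, which is phosphorylated at DNA breaks, went from 53.5 ± 6.98 to 71.7 ± 2.08 CPM (0.42, SE 0.10, edgeR adjusted p = 0.0325). H2afz was called with them against A. faecalis (0.35). With 1 library left out, H3f3b lost its call against vehicle in 3 of 12 fits and H2afx in 5, and H2afz lost its call against A. faecalis in 7.

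Of 42 genes of DNA replication and S phase 2 were called higher with S. aureus against vehicle, a share near the 3.87% of all genes: Tyms, for thymidylate synthase (0.45, SE 0.10), and Rrm2, a subunit of ribonucleotide reductase (0.45, SE 0.11). With 1 library left out, Tyms lost the call in 3 of 12 fits and Rrm2 in 9 (edgeR adjusted p up to 0.0988). The median log2 fold change of the 42 was 0.21, and 38 lay above 0, beside 45.3% of all genes. Their summed level was 960 to 1241 CPM with vehicle, 957 to 1130 CPM with A. faecalis and 1197 to 1254 CPM with S. aureus. Vehicle replicate 1 (1241 CPM) lay within the S. aureus range. Vehicle replicates 2, 3 and 4 (1041, 974 and 960 CPM) and every A. faecalis library lay below every S. aureus library. The level of histone mRNA per level of these genes was 2.02 to 2.38 with vehicle, 1.95 to 2.19 with A. faecalis and 2.64 to 3.20 with S. aureus, without overlap. Per level of 28 genes of G2 and mitosis it was 2.09 to 3.09 with vehicle, 2.40 to 2.76 with A. faecalis and 2.88 to 3.53 with S. aureus, so on that scale S. aureus overlapped with vehicle. Against A. faecalis 8 of the 42 S-phase genes rose, beside 7.62% of all genes. Of the 28 genes of G2 and mitosis none was called with S. aureus against vehicle (median 0.30, 27 above 0) and 6 rose against A. faecalis. Among these were Cenpf (1.37), which lost the call in 3 of the 12 fits that leave out a library, and Cdk1 (0.51), which lost it in 6. Of 18 quiescence genes and inhibitors of cyclin-dependent kinases, Btg2 was called higher (0.97) and Cdkn1c lower (-1.01) with S. aureus against vehicle. Btg2 lost the call in 9 of the 12 fits (edgeR adjusted p up to 0.122) and Cdkn1c in 4. The part of dividing cells in the histone result was not tested.

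**Figure D5:**
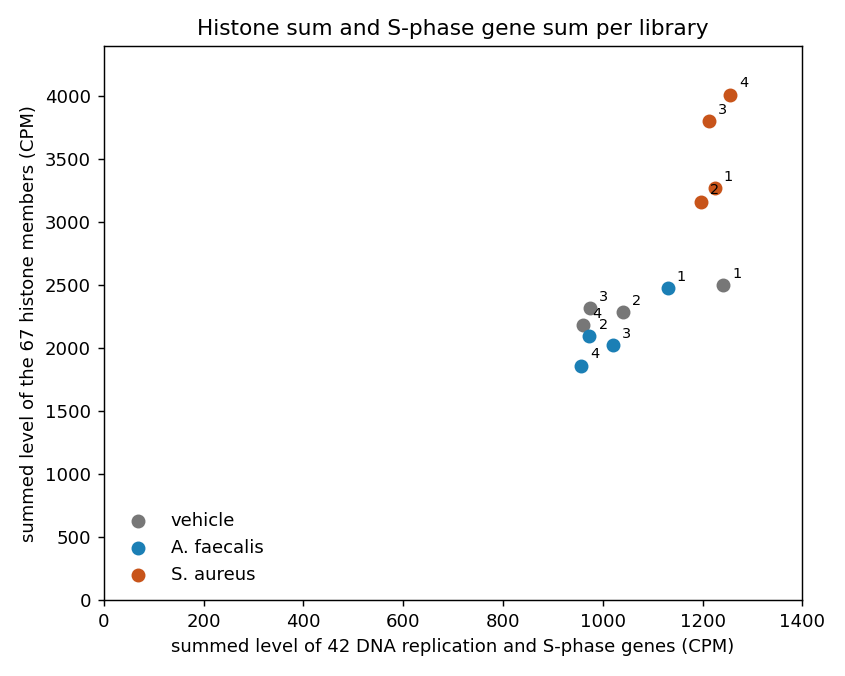
Summed level of the 67 histone genes against that of 42 DNA replication and S-phase genes (both CPM) in each of the 12 libraries, numbered by replicate. The S. aureus libraries lie at 3164 CPM or more of histone mRNA, while vehicle replicate 1 has a similar S-phase sum (1241 CPM) and 2501 CPM of histone mRNA. The other vehicle libraries and the A. faecalis libraries have lower S-phase sums than every S. aureus library.

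Markers of several cell types differed between the groups too. The sum of 18 neutrophil markers was 1037 to 10361 CPM with vehicle, 2520 to 5511 CPM with A. faecalis and 10783 to 17337 CPM with S. aureus, and none of them was at 0 throughout. Il1r2 (1.97) and Camp (2.47) rose against vehicle and 8 of 18 rose against A. faecalis. All 18 had log2 fold changes above 0 with S. aureus against vehicle (median 1.505), beside 45.3% of all genes. For the counts of called markers in these lists, the shares over all genes were 3.87% higher and 2.97% lower against vehicle. Against A. faecalis 7.62% of all genes were called higher. Vehicle replicate 4 had a neutrophil sum of 10361 CPM, close to S. aureus replicate 1, and a histone sum of 2185 CPM, the lowest of its group. In the same library Hist1h1c (193 CPM), its share of the H1 sum (44.3%) and the H1 to core ratio (0.249) were the highest of the vehicle group. Of 10 endothelial markers 4 rose with S. aureus against vehicle (2048 to 2249 CPM summed, against 1265 to 1810 CPM). Of 16 monocyte and macrophage markers 3 fell, Mertk, Emr1 and Ms4a7, and 3 of 8 erythroid markers fell. Of 13 basal keratinocyte markers 1 fell, and of 13 fibroblast markers 2 rose and 2 fell. Of 15 markers of differentiated epidermis 1 rose and 2 fell, and 1 of 8 B and plasma cell markers fell. None of 13 lymphocyte, 12 adipocyte and 12 muscle markers was called against vehicle. All 12 adipocyte markers nevertheless had log2 fold changes below 0 (median -1.18), with sums of 2621 to 10303 CPM with vehicle and 1684 to 3121 CPM with S. aureus, which overlap. Of the muscle markers 1 lay above 0 (median -0.37), and of the lymphocyte markers 7 did (median 0.08). The part of these cell types in the histone result was not tested.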

How the data were processed

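RNA of wounded skin from 12 mice, 4 per group, was measured; per the series design text each group had 4 mice, so each library is read as 1 mouse. The authors deposited estimated counts per gene, and per the submitters' processing notes the tools were kallisto 0.48.0, FastQC 0.12.1, DESeq2 1.34.0 and R 4.1.3, on build GRCm39, with no role stated for any. Kallisto divides reads shared by similar transcripts, so values of near-identical histone genes are uncertain. In the sources used here, use of strand in counting is not given. The estimated counts were rounded, and 1 entry without a gene name (0.00909% to 0.0151% of a library) was left out.

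Groups were compared in 1 model of all 12 libraries with edgeR 4.0.16 in R 4.3.3: TMM scaling, filterByExpr (minimum count 10, minimum total 15), robust quasi-likelihood test, two-sided, adjusted p under 0.05 by Benjamini-Hochberg over 18218 genes. Fold changes are log2. The procedure was tested on simulated data. Members, lists and tests were chosen with earlier results of these data known. Named were up to 6 called members with the largest and the smallest change per comparison, the 2 with the highest mean level and the one with the smallest unadjusted p per class, Hist1h1c, Hist1h2bc, Hist2h2be and the small clusters, Slbp, Npat, and up to 3 called genes per list. Other histone genes are named where a count or a shared read set turns on them. A list of other RNAs without a poly(A) tail was not used here, as 0 of its 17 symbols matched. Promoters and symbols came from RefSeq, and transcript models from GENCODE M21, both of build GRCm38. The submitters' notes name GRCm39, so no positions are given except those of the printed promoter stretches, which are on GRCm38. Alternatives were DESeq2 size factors, upper-quartile scaling, DESeq2 1.42.0, limma-voom (limma 3.58.1), no filter or a mean of at least 1 CPM, only the 2 groups compared, the replicate number as a block, each library left out and, added after seeing the data, near-identical genes summed.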

Additional observations from a re-analysis of the deposited data

Results flagged for a closer look

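In 3 of 105 sets of 4 libraries examined, 1 library lay far from the other 3, and chance gives about 1 in 20. Hist1h2bc was at 93.3 CPM in vehicle replicate 3 and at 68.5 to 69.3 CPM in the other vehicle libraries. Hist1h2bg was at 53.8 CPM in A. faecalis replicate 1 and at 44.1 to 45.6 CPM in the other 3. Hist1h2bp was at 5.16 CPM in S. aureus replicate 2 and at 5.61 to 5.69 CPM in the other 3.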

How the results depend on the processing

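With A. faecalis against vehicle, 0 histone genes were called under any alternative run. With S. aureus against vehicle the count of 35 was 25 to 47 under the alternatives that keep all libraries of both groups. The share of all genes called moved too, from 1.97% (only the 2 groups compared, 26 histone genes) to 14.7% (DESeq2, 47 of 67 histone genes). With a library left out the count was 7 to 43. It was 19, 7, 10 and 23 without S. aureus replicates 2, 3 and 4 and vehicle replicate 3. With S. aureus against A. faecalis the count was 48 to 53, beside 7.86% to 19.4% of all genes called. With a library left out it was 38 to 53. The summed levels moved by less than 1 SD under both other scalings, and the median log2 fold changes kept their sign throughout. Same-numbered libraries correlated at -0.21 to 0.18 in their deviations, over 0.1 in 3 of 12 pairs (all between vehicle and A. faecalis), and 0 of 12 libraries correlated best with their own number in both other groups, so the numbers were not taken as pairs; with the replicate block 33, 50 and 0 genes were called (S. aureus against vehicle, S. aureus against A. faecalis, A. faecalis against vehicle).

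Values near 0 that were not called changed sign. For the log2 fold change of Hist1h2ai, A. faecalis against vehicle, this was 0.00417 with a mean of at least 1 CPM. For the log2 fold change of Btg2, A. faecalis against vehicle, it was 0.0481 with limma-voom and 0.0242 with the replicate block. For the log2 fold change of Nfyb, A. faecalis against vehicle, it was 0.000679 with DESeq2 size factors, 0.00163 with DESeq2, 0.00742 with a mean of at least 1 CPM, 0.00154 with no filter and 0.00248 with upper-quartile scaling. With a library left out, A. faecalis against vehicle, the ranges crossed 0 for Hist1h2ae (-0.0843 to 0.10), Hist1h2ai (-0.0835 to 0.10), Hist1h2ap (-0.17 to 0.0517), Hist1h2bg (-0.12 to 0.0674), Hist1h3d (-0.0814 to 0.12), Hist1h4d (-0.0625 to 0.0169), Hist1h4i (-0.00169 to 0.28), Hist2h2ac (-0.11 to 0.053), Hist3h2ba (-0.26 to 0.19), Btg2 (-0.18 to 0.19), Cdk1 (-0.18 to 0.0366), Cstf2 (-0.0311 to 0.0525), H3f3b (-0.11 to 0.22), Nfyb (-0.0561 to 0.0734), Zcchc6 (-0.16 to 0.0132). They did so for Hist3h2ba (-0.16 to 0.13), Npat (-0.022 to 0.0928) with S. aureus against A. faecalis and for Hist3h2ba (-0.24 to 0.15) with S. aureus against vehicle. The cause of these changes was not tested. Depth limits the genes under 1 CPM most, and 4 histone genes were too low to test.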
